A study of Mus musculus with 80 samples.

Results

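Kinesins, dyneins and tubulins were followed in single projection neurons of the mouse striatum. The genes were taken by name from the table of 25160 listed genes: every name starting with Kif (and a digit or c), Dync or Dynl, the light chains Klc1 to Klc4, and the alpha, beta and gamma tubulins. Of 75 matching names, 3 were pseudogenes by their suffix and were dropped, which left 72 genes. By role these were 35 kinesins, 4 kinesin light chains, 7 heavy, intermediate and light intermediate chains of dynein, 9 dynein light chains, 5 alpha tubulins, 8 beta tubulins and 2 gamma tubulins. The other 2, Kif1bp (a kinesin-binding protein) and Kif16bos (an RNA antisense to Kif16b), carry the name without being a motor or a tubulin.

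The cells came from the dorsomedial striatum of adult mice that were heterozygous for both a Drd1a-TdTomato and a Drd2-EGFP transgene, each a bacterial artificial chromosome whose reporter is driven by the dopamine receptor's regulatory region. Medium spiny neurons (MSN), the projection neurons of the striatum, were sorted 1 cell to a well by reporter, so all cells carried the same genotype and no treatment separated the groups. The D1 MSN were the 40 cells labelled Drd1a-TdTomato. The D2 MSN were 38 of the 40 cells labelled Drd2-EGFP, and the other 2 were set apart as cholinergic interneurons (ChI) because Chat, the gene for acetylcholine synthesis, exceeded 100 TPM in them. Values are TPM (transcripts scaled for gene length) as deposited, and the listed genes of a cell summed to between 506588 and 958040 TPM. Levels of different genes are set side by side on this scale as the authors made it. The study reports that its reads leaned toward the 3′ end, a bias that it ties particularly to long transcripts. The part of this bias in the order of genes by level was not tested. Plate FACS051_5 held 18 D1 and 16 D2 MSN, plate FACS086_4 held 21 and 19, and FACS086_9 contributed 1 and 3. No label gives an animal, so each group counts as 1 sample, no test was made and no p-value is given. Differences are set beside the same difference within the 2 large plates.

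The receptors followed the labels: Drd1 was above 1 TPM in 38 of 40 D1 MSN and 3 of 38 D2 MSN, and Drd2 in 2 and 26. The transmitter genes were less exclusive. Penk, of D2 MSN, was above 1 TPM in all 40 D1 MSN, though with a mean of 119.7 against 12438 TPM, and Tac1, of D1 MSN, in 22 of 38 D2 MSN (1478 against 69.5 TPM). The D1 MSN in well C06 of FACS051_5 had 3676 TPM of Penk beside 297 TPM of Drd1, and held the highest D1 value of 5 of the 33 genes described below. Without it the counts of genes past a 2-fold difference, given below, were the same, while the log2 fold of D1 over D2 MSN went from 0.05 to -0.08 for Tubb3 and from 0.04 to -0.16 for Kif3a. The ChI markers summed to at most 14.7 TPM in any MSN, and to 2303 and 3014 TPM in the ChI. The astrocyte markers (6 of 7 listed) summed to between 0 and 225 TPM in D2 MSN and between 0 and 17.6 TPM in 39 D1 MSN. The remaining D1 MSN, in well D04 of FACS051_5, summed to 14105 TPM and had 2.03 TPM of Drd1, so the tubulin values that it moves most are given with and without it. Oligodendrocyte markers (5 of 6 listed) reached 348 TPM in D1 MSN (188 TPM without well D04) and 107 TPM in D2 MSN, microglia markers (2 of 6 listed) 10.8 and 20.8 TPM, endothelial markers (3 of 4 listed) 152 and 277 TPM, and markers of dividing cells (5 of 5 listed) 82.2 and 97.0 TPM. Markers of other striatal interneurons (2 of 5 listed) reached 2.51 TPM in D1 MSN and were listed at 0 in D2 MSN. Genes above 1 TPM numbered 648 to 8657 per D1 MSN (median 5722) and 1215 to 7942 per D2 MSN (median 4927.5). The part of these differences in the results was not tested, except where a value without the cell is given.

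Microtubules are hollow polymers of alpha and beta tubulin pairs, and gamma tubulin starts new ones. In axons their growing ends point away from the cell body, so kinesins, most of which walk toward that end, carry vesicles and organelles outward, and cytoplasmic dynein carries cargo back. An MSN sends an axon from the striatum to the globus pallidus or to the output nuclei of the basal ganglia, and both motor classes serve that path. Isotypes of tubulin share most residues of their bodies. They differ there and in the tail at their end, where many motors and modifying enzymes act.

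The tails are shown in the coding ends of the 5 beta tubulin genes that averaged at least 10 TPM. The sequences are on the coding strand, 5′ to 3′, from transcripts of GENCODE M21 on the build GRCm38. Lower case marks the codons of the last 5 residues before the tails part, and capitals mark the tail with its stop codon.
Tubb3: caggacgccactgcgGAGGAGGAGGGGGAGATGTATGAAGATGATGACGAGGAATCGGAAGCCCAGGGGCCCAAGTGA
Tubb2a: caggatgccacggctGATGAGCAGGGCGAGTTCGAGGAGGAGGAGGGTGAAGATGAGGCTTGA
Tubb5: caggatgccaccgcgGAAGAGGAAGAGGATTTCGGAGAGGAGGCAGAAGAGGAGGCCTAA
Tubb4b: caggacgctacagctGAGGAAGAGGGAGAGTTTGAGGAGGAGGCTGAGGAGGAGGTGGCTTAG
Tubb4a: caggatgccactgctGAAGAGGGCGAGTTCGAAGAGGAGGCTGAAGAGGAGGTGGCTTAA

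The tails run from 14 codons in Tubb5 and Tubb4a to 20 codons in Tubb3. Over their whole length Tubb3 and Tubb4a differ at 42 of 450 aligned residues, so differences also lie before the tail. Among the alpha tubulins, over the whole coding sequence, Tuba1a and Tuba1b differ at 23 of 1356 bases and at 2 of 451 residues, whereas Tuba1a and Tuba4a differ at 207 aligned bases and 19 residues. Such likeness limits how far short reads can be assigned. The study's reads were paired, whereas the stretches below were counted singly, so their shares need not be those of ambiguous pairs. Of all stretches of 75 bases (the read length) in its transcript, 68.2% in Tuba1a and 71.9% in Tuba1b also occur in another annotated gene, against 43.2% in Tubb2a, 37.8% in Tubb4b and 0% in Tuba4a, Tubb3, Tubb5 and Tubb4a. The dynein light chain genes Dynlt1a, Dynlt1c and Dynlt1f have the same coding sequence, and 51.2% to 90.6% of their stretches are shared. The low Tuba1c and Tubb2b share 56.7% and 32.2% of theirs, and the low kinesins Kifc1 and Kifc5b 34.6% and 30.2%. Levels of Tuba1a, Tuba1b, Tuba1c, Tubb2a, Tubb2b, Tubb4b, Kifc1, Kifc5b and the Dynlt1 genes are therefore uncertain as to which copy gave the reads. The same holds for the shares of isotypes given below. How the deposited TPM treated such reads is not given in the sources used here.

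Levels spanned from 1219.7 TPM to none. A total of 33 of the 72 genes averaged at least 10 TPM over the 78 MSN (7642 of all listed genes did), from Dynll1 down to Kif3c at 10.98 TPM, and Kif5a lay just under that limit at 9.67 TPM. The highest means were those of the dynein light chain Dynll1 (1219.7 TPM), the alpha tubulin Tuba1a (388 TPM), the dynein light chain Dynlrb1 (291 TPM), Tuba4a (184 TPM), the kinesin light chain Klc1 (167 TPM), the beta tubulins Tubb3 (157 TPM) and Tubb2a (116 TPM), and the kinesin Kif3a (114 TPM). The ranges over cells of neighbouring genes in this order overlap, and nearly all start at or near 0. At least 50% of the cells were above 1 TPM for 27 genes in D1 MSN and for 24 genes in D2 MSN, beside 3919 and 3237 of all listed genes. No cell was above 1 TPM for 5 genes in D1 MSN, for 11 in D2 MSN and for 4 in all MSN (Tubb6, Kif26a, Kifc1 and Tuba8).

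**Figure D1:**
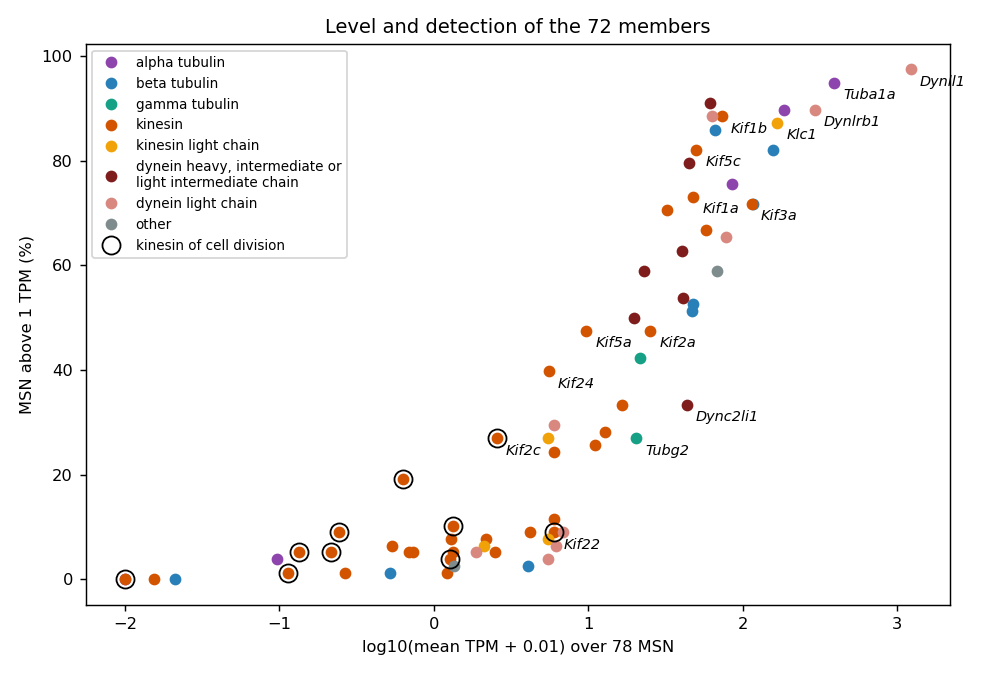
Mean level (horizontal, log10 of TPM plus 0.01) against the percentage of the 78 MSN above 1 TPM (vertical) for each of the 72 genes, coloured by role, with kinesins of cell division ringed. Dynll1 is at the top right with 97.4% of cells, while the ringed kinesins lie at the lower left with means of at most 5.99 TPM.

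Alpha tubulin was listed almost wholly under 3 genes. Tuba1a (chr15:98949837-98953703, minus strand) ran from a listed 0 through a median of 364 TPM to 1261 TPM in D1 MSN, and from 0.323 through 375 to 1079 TPM in D2 MSN. Of 40 D1 and 38 D2 MSN, 37 each exceeded 1 TPM. Tuba4a (chr1:75214228-75219865) had a median of 156 TPM in D1 MSN (highest 756) and 130 TPM in D2 MSN (highest 836), in 36 and 34 cells. Tuba1b, beside Tuba1a on chr15, had means of 94.7 and 75.8 TPM, but medians of 54.0 and 6.20 TPM, with 34 of 40 D1 and 25 of 38 D2 MSN above 1 TPM. The groups overlapped over nearly their whole ranges for all 3 genes. In the sum of group means Tuba1a made up 57.2% in D1 and 61.0% in D2 MSN, Tuba4a 29.0% and 26.9%, and Tuba1b 13.8% and 12.1%. Tuba1c averaged 0.087 TPM, and Tuba8 was listed at 0 in every MSN. As a share of a cell's listed TPM, all alpha tubulin had a median of 0.0772% in D1 and 0.0700% in D2 MSN, with single cells between 0% and 0.159% and between 5.06e-05% and 0.211%.

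Beta tubulin was spread over 5 genes. Tubb3 (chr8:123411424-123422015), the isotype used as a marker of neurons, was the highest, with means of 160 and 154 TPM and medians of 118 and 112 TPM, in 32 of 40 D1 and 32 of 38 D2 MSN. Tubb2a (chr13:34074274-34078007) averaged 142 TPM in D1 and 87.6 TPM in D2 MSN and was found above 1 TPM in 34 and 22 cells. Its D1 values ran from a listed 0 through 66.7 to 976 TPM and its D2 values from a listed 0 through 2.93 to 485 TPM. The log2 fold, taken throughout as the mean in D1 MSN plus 1 TPM over the mean in D2 MSN plus 1 TPM, was 0.69 for Tubb2a, with 0.84 and 0.85 on the 2 large plates. The highest value was that of well D04, without which the fold was 0.46, and 0.44 on FACS051_5.

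Tubb4a (chr17:57080066-57087782) had the largest fold toward D1 MSN of the tubulins averaging 10 TPM or more. Its mean was 63.1 TPM in D1 and 29.998 TPM in D2 MSN, with ranges from a listed 0 to 214 TPM (median 23.002) and to 234 TPM (median 0). Cells above 1 TPM were 27 of the 40 D1 MSN (67.5%, exact 95% interval 50.9% to 81.4%) and 13 of the 38 D2 MSN (34.2%, 19.6% to 51.4%), where the intervals cover counting error only. The highest values were alike in both groups, and the groups parted in how many cells held the transcript. On FACS051_5 Tubb4a was above 1 TPM in 11 of 18 D1 and 8 of 16 D2 MSN. On FACS086_4 it was in 15 of 21 and 5 of 19, so the gap was wider there. The log2 fold was 1.05, with 0.69 and 0.97 within the large plates, and ranged from 0.96 to 1.33 when single cells were left out. Leaving out well A04 of FACS051_5 gave the lowest of these values.

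The remaining beta tubulins differed less. Tubb5 averaged 71.7 and 60.9 TPM and Tubb4b 50.5 and 44.3 TPM, with folds of 0.23 and 0.19 (0.25 and 0.10 without well D04). Over the 5 genes the median fold was 0.23. Summed beta tubulin had a median of 0.0444% of listed TPM in D1 and 0.0430% in D2 MSN. Tubb2b averaged 7.85 TPM in D1 MSN, of which well D04 supplied 309 TPM while no other D1 MSN passed 3.28 TPM, and it was listed at 0 in all D2 MSN. Well D04 also had 0.333 TPM of Tubb3 (median of the other D1 MSN 120 TPM), 2.63 TPM of Klc1 (142 TPM) and 0.565 TPM of Kif1a (47.8 TPM), beside its 976 TPM of Tubb2a (63.0 TPM).

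**Figure D2:**
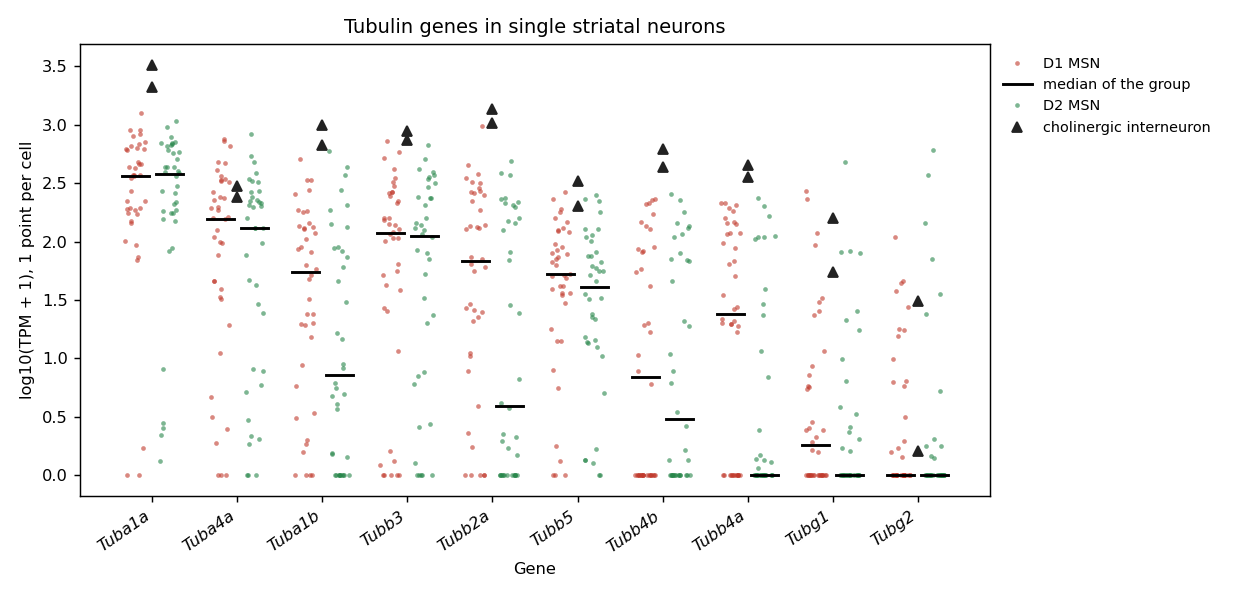
Level of 10 tubulin genes in each cell (log10 of TPM plus 1), with D1 MSN in red, D2 MSN in green, medians as black bars and the 2 cholinergic interneurons as triangles. Tuba1a is high in both groups, Tubb4a has a median of 23.002 TPM in D1 MSN and 0 in D2 MSN, and in 6 genes both triangles lie above every MSN.

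In the 2 ChI, both values were above the highest MSN for 6 of the 33 genes averaging 10 TPM or more, all of them alpha or beta tubulins, against 0.563% of all such genes.

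The gamma tubulins, which sit in the ring complex that nucleates microtubules, were low and found in few cells. Tubg1 averaged 21.7 TPM in D1 and 21.3 TPM in D2 MSN (19 and 14 cells above 1 TPM), with a median of 0.795 TPM in D1 MSN and 0 in D2 MSN. The D2 mean rested on well C05 of FACS051_5 at 483 TPM, with the next D2 MSN at 82.2 TPM, and the fold of 0.02 was 1.21 without it. Tubg2, close to it on chr11, averaged 8.40 and 33.0 TPM (13 and 8 cells), a fold of -1.85. That fold rested on 2 D2 MSN, well C06 of FACS086_4 at 604 TPM and well A04 of FACS086_9 at 370 TPM. It was -0.98 without the first and 0.10 without both, and it was 1.22 on FACS051_5 and -3.99 on FACS086_4.

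Kinesin-1, the conventional motor of axonal transport, is built of a Kif5 heavy chain and a light chain that binds cargo. Kif5b averaged 58.3 TPM in D1 and 57.3 TPM in D2 MSN, Kif5c 49.2 and 50.4 TPM, and Kif5a 9.40 and 9.95 TPM. The 3 genes thus divided the sum of heavy chains almost alike in both groups, with Kif5b at 49.9% and 48.7%, Kif5c at 42.1% and 42.8%, and Kif5a at 8.04% and 8.46%. Their folds were 0.03, -0.03 and -0.07, although for Kif5b they were -0.95 and 0.78 on the large plates. The number of heavy chains found varied between cells: 15 D1 and 7 D2 MSN held all 3 above 1 TPM, and 16 and 21 held 2. A further 7 and 6 held 1, and 2 and 4 held none. The cells with none had 648 to 4494 genes above 1 TPM, and those with all 3 had at least 4838. The part of the number of genes in these counts was not tested.

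Among the light chains Klc1 (chr12:111758849-111807844) stood well above the rest, with 98.2% of the summed means in D1 and 85.5% in D2 MSN. Its median was 141 TPM in D1 MSN (0 to 822 TPM) and 117 TPM in D2 MSN (0 to 511 TPM), in 37 and 31 cells. Its fold came to 0.53, or 1.13 on FACS051_5 and -0.11 on FACS086_4, so the plates did not share a direction. Klc2 averaged 1.11 and 10.1 TPM, the second value resting on a highest cell of 249 TPM, without which it was 3.64 TPM.

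Kif1a (chr1:93015464-93101951, minus strand), the kinesin-3 that carries precursors of synaptic vesicles, had the largest fold toward D1 MSN of the 33 genes over all MSN. It was not the largest with the folds of the large plates averaged (Dync1i1 1.45, Kif3c 1.26 from opposite signs on them, Kif1a 1.25). Its mean was 68.3 TPM in D1 MSN (0 through a median of 46.2 to 336 TPM) and 26.2 TPM in D2 MSN (0 through 9.55 to 178 TPM). Values above 1 TPM occurred in 33 of the 40 D1 MSN (82.5%, 67.2% to 92.7%) and in 24 of the 38 D2 MSN (63.2%, 46.0% to 78.2%). The ranges overlapped, and the 25% of D1 MSN with the highest values were above 91.0 TPM against 29.1 TPM in D2 MSN. On FACS051_5 the means were 75.0 and 33.8 TPM, and on FACS086_4 63.4 and 23.9 TPM. The log2 fold was 1.35 (1.13 and 1.37 within these plates), lay between 1.20 and 1.59 with any single cell left out, and was 1.05 among cells with at least 4000 genes above 1 TPM. Its relative Kif1b averaged 76.8 and 68.7 TPM, in 37 and 32 cells, with a fold of 0.16 and opposite directions on the large plates (-0.44 and 0.69).

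Of the kinesin-2 genes, which serve cilia and dendritic transport, Kif3a led with 116 TPM in D1 and 113 TPM in D2 MSN and made up 76.6% and 78.1% of the sum of the 4 genes. Kif3b, the usual partner of its protein, averaged 7.43 and 4.36 TPM, Kif3c 13.6 and 8.19 TPM, and Kif17, a carrier of glutamate receptor subunits in dendrites, 14.3 and 18.9 TPM. Kif17 went opposite ways on the plates, with folds of -1.58 and 2.02. Kif21a, a kinesin-4 that slows microtubule growth, averaged 32.04 and 32.39 TPM, and Kif2a, a kinesin-13 that takes microtubules apart, 25.4 and 25.0 TPM. Kifc2, a motor of the minus-end directed class, averaged 12.1 and 13.5 TPM, and its folds were -0.14 in all MSN and -0.24 and -0.20 on the plates. Over the 10 kinesins averaging 10 TPM or more the median fold was 0.02.

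**Figure D3:**
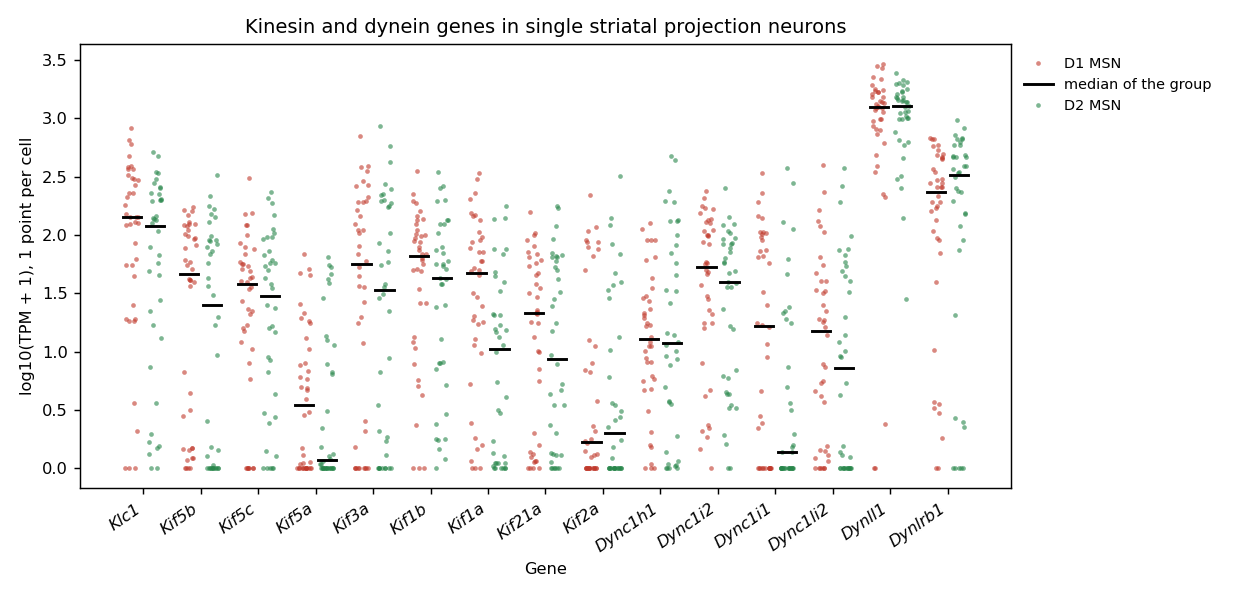
Level of 15 kinesin and dynein genes in each MSN (log10 of TPM plus 1), with D1 MSN in red, D2 MSN in green and medians as black bars. Dynll1 lies highest in both groups, and the median of Kif1a is 46.2 TPM in D1 and 9.55 TPM in D2 MSN.

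Cytoplasmic dynein is assembled on its heavy chain, Dync1h1, which holds the motor. The heavy chain (Dync1h1) averaged 25.4 TPM in D1 and 64.8 TPM in D2 MSN. Its log2 fold was -1.32 (-2.33 and -1.08 on the large plates), the largest toward D2 MSN that kept its direction on both. The medians did not share this gap: D1 MSN ran from a listed 0 through 11.8 to 125 TPM, D2 MSN from a listed 0 through 10.8 to 478 TPM, and 34 of 40 D1 against 28 of 38 D2 MSN were above 1 TPM. The mean of D2 MSN was raised by single cells, chiefly wells C06 (478 TPM) and C03 (437 TPM) of FACS086_4. Without C06 the fold was -1.05, without both it was -0.73, and among cells with at least 4000 genes it was -0.94. On FACS051_5, which holds neither cell, the medians were 8.08 TPM in D1 and 17.8 TPM in D2 MSN. On FACS086_4 they were 20.3 and 12.9 TPM, so the plates did not share a direction of the median.

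The intermediate chains, which bind dynactin and cargo, come from 2 genes. Dync1i2, the more widely used, averaged 70.4 and 50.7 TPM in 37 and 34 cells, with a fold of 0.46. Dync1i1, the form typical of neurons, averaged 52.3 and 29.3 TPM and was above 1 TPM in 27 of 40 D1 and 15 of 38 D2 MSN, with a fold of 0.82 that was 2.76 on FACS051_5 and 0.15 on FACS086_4. The light intermediate chains Dync1li1 (20.3 and 25.6 TPM) and Dync1li2 (41.1 and 39.1 TPM) had folds of -0.32 and 0.07, with opposite signs on the plates. Of dynein-2, the motor of cilia, the heavy chain Dync2h1 averaged 19.0 and 20.5 TPM but was above 1 TPM in 26 of 40 D1 and 13 of 38 D2 MSN. Its partner Dync2li1 averaged 54.8 and 31.1 TPM in 17 and 9 cells, with folds of 0.80 overall (0.44 without well C06 of FACS051_5) and 1.13 and 0.03 on the plates.

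Dynein light chains held the highest level of all. Dynll1 (chr5:115297110-115300999), a small hub protein that also binds many partners outside dynein, averaged 1227.7 TPM in D1 MSN (0 through 1244 to 2909 TPM) and 1211 TPM in D2 MSN (27.4 through 1272 to 2447 TPM), and was above 1 TPM in 38 of 40 and 38 of 38 cells. The fold was 0.02. Dynlrb1 averaged 258 and 325 TPM, a fold of -0.33 with -0.68 and -0.32 on the plates, while Dynll2 averaged 59.5 and 66.8 TPM and Dynlt3 83.0 and 72.1 TPM. The 4 Dynlt1 copies averaged 1.87 to 6.85 TPM and cannot be told apart by most of their sequence.

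Few genes of the family passed a 2-fold difference of means between the subtypes. A log2 fold above 1 was found for 3 of the 33 genes, Kif1a, Tubb4a and Kif1bp, against 12.4% of all 7642 genes that averaged 10 TPM or more. With the folds of the large plates averaged, or without FACS086_9, the 3 were Kif1a, Dync1i1 and Kif3c, so Tubb4a and Kif1bp were no longer among them. The large plates gave Kif3c opposite signs. A fold below -1 was found for 2 genes, Dync1h1 and Tubg2, against 9.58% of all genes. Both counts are near what these shares give over 33 genes, and nothing particular to the family is read from them. Folds passed 1 on both large plates for Kif1a, against 4.48% of all genes, and were below -1 on both for Dync1h1, against 3.79%. The 2 large plates gave opposite signs for 21 of the 33 genes, against 47.2% of all genes. The median fold of the 33 genes was 0.05 (0.01 over all genes), and -0.07 and 0.15 within the plates. Kif1bp averaged 90.7 TPM in D1 and 44.6 TPM in D2 MSN with 23 cells above 1 TPM in each, and its fold of 1.01 was 0.79 without well A05 of FACS051_5, which held 597 TPM. Toward D2 MSN, 4 genes kept their direction on both plates: Dync1h1, Dynlrb1, Kifc2 and Kif5c (-0.03).

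**Figure D4:**
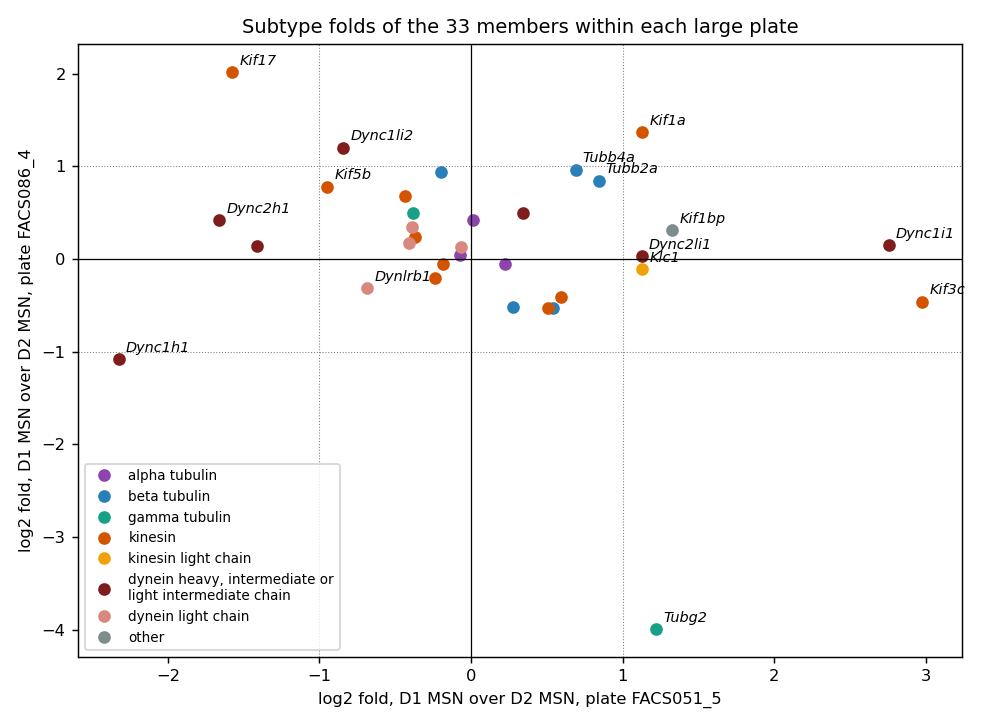
Log2 fold of D1 over D2 MSN on plate FACS051_5 (horizontal) and on plate FACS086_4 (vertical) for the 33 genes averaging 10 TPM or more, coloured by role, with dotted lines at folds of -1 and 1. Kif1a lies beyond 1 and Dync1h1 beyond -1 on both axes, while 21 genes lie in the quadrants where the plates disagree.

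How often a gene was found moved with how many genes a cell yielded. A D1 MSN held 2 to 36 of the 72 genes above 1 TPM (median 28.5) and a D2 MSN 6 to 36 (median 23.5). The medians were 26.5 and 27 on FACS051_5 and 29 and 23 on FACS086_4, so D1 MSN held more on the second plate and not on the first. The number followed the number of all genes above 1 TPM, with a Spearman rho of 0.85 over 78 cells (0.91 in D1, 0.77 in D2 MSN), and both counts come from the same library of each cell. Of the 33 genes, 27 were found in a larger share of D1 than of D2 MSN, by a median of 8.29 percentage points, where all 7642 genes differed by a median of 3.42 points in the same direction and 64.6% of them were found in a larger share of D1 MSN. The largest gaps were those of Tubb4a (33.3 points), Dync2h1 (30.8), Dync1i1 (28.0) and Tubb2a (27.1). On a scale of mean log2(TPM + 1), which weighs such zeros more, the median difference was 0.44 for the 33 genes and 0.16 for all genes. In cells with at least 4000 genes (33 D1 and 26 D2 MSN) these medians were 0.13 and 0.01. The part of the number of genes in the subtype differences was not tested further.

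**Figure D5:**
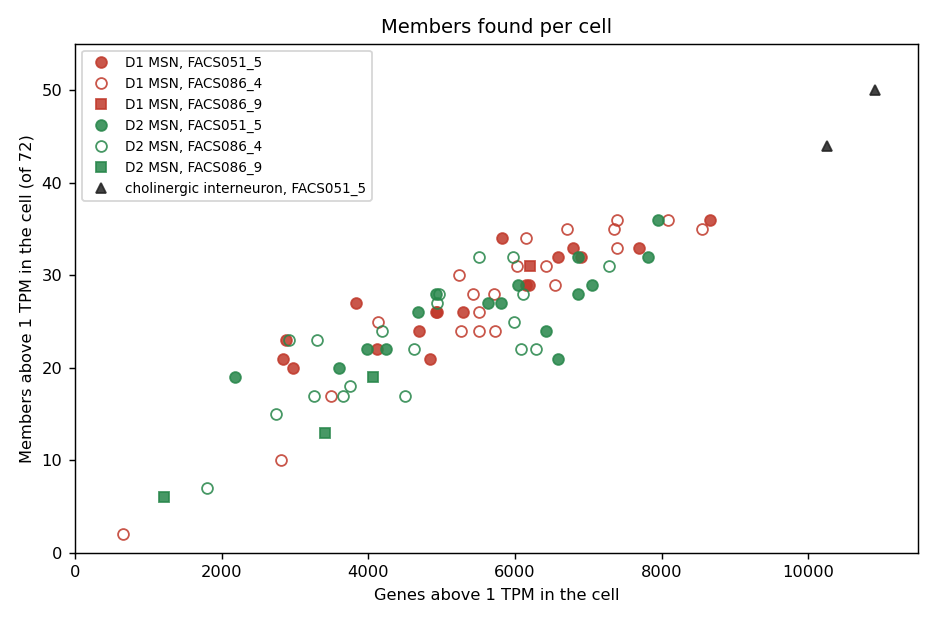
Number of the 72 genes above 1 TPM in a cell (vertical) against the number of all genes above 1 TPM in it (horizontal), by group and plate. D1 and D2 MSN lie along 1 band with a rho of 0.85, and the 2 cholinergic interneurons, with 50 and 44 of the genes, lie at its upper end.

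Most of the 39 genes with a mean under 10 TPM were found in few cells: 32 of them were above 1 TPM in at most 10 of 78 MSN, though Kif5a was in 37. Among kinesins the highest were Kif5a, Kif22 (5.99 TPM) and Kifc3 (5.99 TPM, 7 D1 and 2 D2 MSN above 1 TPM). Kinesins of cell division were examined as a group because adult neurons do not divide. Of these, 10 of 12 were listed, with a median level of 0.425 TPM and a highest of 5.99 TPM (Kif22). Kifc1 was listed at 0 in all MSN. At least 1 of the 10 was above 1 TPM in 29 D1 and 18 D2 MSN, and their sum had medians of 3.59 and 0.915 TPM.

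The partners of these genes were counted by lists. Of all 7642 genes averaging 10 TPM or more, 12.4% had a fold above 1 and 9.58% a fold below -1. Over lists this short, nothing particular to a list is read from its count. Of dynactin, the complex that links dynein to cargo, 11 of 12 genes averaged at least 10 TPM and none passed a fold of 1 either way, with a median of -0.01 and Dctn3 highest at 306 TPM. Of 20 listed dynein regulators and motor adaptors, 14 reached that mean. Hap1, a huntingtin-associated adaptor, was above 1 (15.8 and 5.29 TPM, 18 and 5 cells, fold 1.42) and Trak1, an adaptor of mitochondria, below -1 (10.7 and 24.5 TPM, fold -1.12, and -0.91 without well C02 of FACS051_5), and Fez1 was highest at 244 TPM. Among 25 of 28 microtubule-associated proteins 3 were above 1 and 2 below -1. Stmn2, a stathmin that binds free tubulin and is known for axon maintenance, averaged 86.8 TPM in D1 and 15.7 TPM in D2 MSN with 28 and 11 cells above 1 TPM, a fold of 2.40 (2.58 and 1.99 on the plates). Its medians were 84.4 and 0.401 TPM, although the ranges overlapped up to 163 TPM. Camsap2, which caps minus ends, had the largest fold toward D2 MSN among the 25 (11.1 and 42.1 TPM, fold -1.83, and -1.10 without well A12 of FACS086_4 at 672 TPM), and Stmn3 was highest at 311 TPM. Stmn1 had a fold of 2.33 that was 0.96 without well C06 of FACS051_5, at 2671 TPM.

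Of 14 tubulin folding genes all averaged at least 10 TPM, with 2 above 1 and 1 below -1. Arl2, a small GTPase of the tubulin cofactor pathway, averaged 25.7 TPM in D1 and 105 TPM in D2 MSN, in 13 of 40 and 25 of 38 cells, a fold of -1.98 (-1.04 and -2.62). Tbcd was highest in fold at 1.45, in 4 D1 and 6 D2 MSN, but this rested on 1 D1 MSN, well D11 of FACS086_4 at 568 TPM, without which the fold was -0.27, and the plates gave -0.28 and 2.69. Cct6a was highest in level at 189.8 TPM. Of 28 listed genes of tubulin modification and severing 14 reached the mean, none above 1 and 1 below -1, Ttll11 (1.14 and 22.6 TPM in 5 and 12 cells, fold -3.46, and -2.61 without well B05 of FACS051_5 at 412 TPM), with a median of -0.48 and Agtpbp1 highest at 97.2 TPM. Of the gamma tubulin ring complex 6 of 8 reached it. Tubgcp5, one of its subunits, was above 1 with 52.7 and 1.34 TPM in 16 and 5 cells (fold 4.52, and 4.29 and 4.74 on the plates), and Mzt1 was highest at 64.8 TPM. The median fold was 0.01 for regulators and adaptors, 0.16 for microtubule-associated proteins, 0.32 for folding genes and 0.24 for the ring complex, beside 0.01 for all genes.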

How the data were processed

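Each sample was the cDNA of 1 FACS-sorted cell. The authors deposited 1 table of TPM per gene and cell; how the TPM were computed is not given in the sources used here. Their methods and processing notes name STAR 2.5.0, featureCounts 1.5.1 and the mouse build mm10/GRCm38. TPM keep no read counts, so the depth behind a value is not known from the table, and zeros are written as listed at 0. Near-identical copies and, if strand was not used, antisense genes may share reads.

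All 80 cells of the table were kept, more than the study counts as usable, since the sources used here do not say which it left out, and no doublet caller was run on these plate data. Chat above 100 TPM removed 2 cells from the D2 MSN, a limit set after values were seen. The log2 fold was that of group means, each with 1 TPM added, for genes averaging at least 10 TPM over 78 MSN. A fold beyond 1 or -1 was counted. Cells above 1 TPM were counted as holding a gene, with exact Clopper-Pearson 95% intervals. The study used several animals, but the labels tie no cell to one, so cells are not replicates and no test was run.

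The genes, lists and limits were chosen with earlier results of these data known. Genes were named by these rules: any of the 33 with a mean of at least 10 TPM by role, the 5 largest folds per direction that both large plates shared (4 existed toward D2 MSN), up to 3 lower genes per role, kinesins of cell division as a group, and of each partner list the highest gene and the largest fold per direction. Kif3b, Dynlt1b, Kif26a, Kifc5b, Stmn1, Penk, Tac1 and the wells given were named after their values were seen. Sequences, positions and shared stretches of 75 bases came from GENCODE M21, where all 72 genes were found. The coding ends of the alpha tubulins are not reported here. Alternatives changed the pseudocount, scale, minimum mean, detection limit and cells. The fold was checked on the deposited values with randomly drawn genes raised in randomly drawn cells, and the interval on a known case. The other steps were not checked in this way. Python 3.11.15 was used with pandas 2.3.3, scipy 1.17.1, numpy 2.4.6 and matplotlib 3.10.9.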

Additional observations from a re-analysis of the deposited data

Results flagged for a closer look

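The 2 cholinergic interneurons were outside the comparison of D1 and D2 MSN, and their tubulin levels lay above it. In 6 of the 33 genes averaging 10 TPM or more (Tuba1a, Tuba1b, Tubb2a, Tubb3, Tubb4a and Tubb4b) both cells were above the highest of 78 MSN, against 0.563% of all 7642 genes with that mean. The 6 genes are all alpha or beta tubulins.

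Tuba1a measured 3283 TPM in well A08 and 2108 TPM in well B02 of FACS051_5, and at most 1261 TPM in an MSN. Tubb4b measured 433 and 624 TPM against at most 252 TPM, and its mean in the 2 cells was 11.1 times its mean over the MSN. Tubb4a measured 454 and 356 TPM against at most 234 TPM. For Tubb3 (887 and 740 TPM, highest MSN 719 TPM) and Tubb2a (1364 and 1045 TPM, highest MSN 976 TPM, in well D04) the gap to the highest MSN was small. Tuba4a, at 296 and 239 TPM, lay within the range of the MSN. Summed alpha tubulin made up 0.486% and 0.323% of the listed TPM in these cells, and beta tubulin 0.319% to 0.379%.

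Among the motors, Kif5a made up 42.8% of the kinesin-1 heavy chains in the 2 cells, at 38.5 and 83.8 TPM, and 8.04% and 8.46% in D1 and D2 MSN. Dynll1, at 1054 and 749.5 TPM, lay within the range of the MSN.

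The 2 cells also yielded the most genes, 10912 and 10251 above 1 TPM, where no MSN passed 8657. With TPM rescaled to the same total over listed genes, 5 of the 6 genes stayed above every MSN, all but Tuba1b. Against the 34 MSN of the same plate 8 genes lay above every MSN. Against the 10 MSN with most genes 12 did, among them Klc1, Kif21a, Kif3c, Dynlrb1, Dynlt3 and Tubg1. The restriction to tubulins thus holds against all 78 MSN and not against those 10. No share over all genes is given for the counts of 5, 8 and 12, so nothing particular to the family is read from them. Both cells came from 1 plate, the difference was not tested, and the part of their gene numbers in it was not tested.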

How the results depend on the processing

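The counts of 3 genes above a log2 fold of 1 and 2 below -1 depended on settings more than the median fold did. A pseudocount of 10 TPM left 1 gene above 1, and so did keeping the cholinergic interneurons or a minimum mean of 50 TPM, with 0 below -1 in the last case. The difference of mean log2(TPM + 1) gave 5 above and 0 below (643 and 235 of all 7642 genes), with a median of 0.44 (0.16 over all genes). A minimum mean of 1 TPM gave 11 and 7, and no minimum 10 and 8, where more genes enter. FACS051_5 alone gave 7 and 4. Cells with at least 4000 genes, chosen after seeing the data, gave 4 and 0 (889 and 857 of all 7642 genes). For the other settings of this paragraph no count over all genes is given, so nothing particular to the family is read from them. With 1 cell left out, also chosen after seeing the data, the counts were 1 to 4 and 1 to 2, and the median 0.02 to 0.15. Kif1a and Dync1h1 stayed beyond the limit in all 78 such fits, Tubg2 in 77, Tubb4a in 71 and Kif1bp in 40. The count of 1 above came without well A07 of FACS086_4 or A05 of FACS086_9, and that of 1 below without C06 of FACS086_4. Tubg2 changed sign under the mean of log2 values (0.16), on FACS051_5 (1.22) and in cells with at least 4000 genes (0.27). Of 478 fold values of single genes under alternatives, 417 moved by less than the SD between the large plates. That SD is wide where the plates disagree, and each large plate alone is among the alternatives. The count therefore does not measure how stable the folds are.

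Summed alpha tubulin was 0.0660% in D1 MSN of FACS086_4 and 0.0844% in D2 MSN with at least 4000 genes. Summed beta tubulin in D2 MSN was 0.0415% on FACS086_4 and also without FACS086_9, 0.0447% with the interneurons kept and as a mean over cells, and 0.0495% with at least 4000 genes. Its ratio of D1 to D2 medians was 1.03 and became 0.969 with TPM summed directly. Genes found per cell numbered 33 and 28.5 (D1 and D2 MSN) at a limit of 0 TPM, 22.5 and 18 at 10 TPM, 26.5 and 27 on FACS051_5, and 27 in D2 MSN with at least 4000 genes. Why these values moved was not tested. No paired analysis was possible because replicate numbers only name cells. Folds within the plates, which both groups share, stand in its place, and their mean over the large plates kept the counts at 3 and 2, with Dync1i1 and Kif3c in place of Tubb4a and Kif1bp. Single cells, the depth behind each value and animals that the labels do not tie to cells limit all comparisons.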
